A study of Mus musculus with 12 samples.

Results

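Genes of cholesterol and fatty acid synthesis were followed across 4 mouse fibroblast lines. The set held 32 of the 39179 gene IDs in the tables and was found by exact gene symbol, with 1 gene ID per symbol. It comprised 18 enzymes of the sterol route, 8 enzymes of the fatty acid route, 5 genes that control the SREBP transcription factors, and Stard4, which encodes a carrier of sterols between membranes.

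Both routes start from cytosolic acetyl-CoA. The sterol route passes through mevalonate, isoprenoid diphosphates, squalene and lanosterol to cholesterol, and the fatty acid route builds saturated chains that are then elongated and desaturated. The SREBP proteins switch on genes of both routes; when sterols are abundant, SCAP and the INSIG proteins hold them in the endoplasmic reticulum, and when sterols run short they move to the Golgi, where they are cut and released to the nucleus. SREBP-2, from Srebf2, is best known for sterol genes, and the SREBP-1 forms, from Srebf1, for fatty acid genes.

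The study asked how transcripts differ between cells that carry CBL, an E3 ubiquitin ligase that marks receptor tyrosine kinases for degradation, and cells that carry mutants without ligase activity. NIH-3T3, an immortalised mouse embryonic fibroblast line of NIH/Swiss background, was made to stably express WT-CBL, the mutant CBL-70Z (which lacks a short stretch of the linker and RING region), the mutant CBL-Y371S (in which the tyrosine of that linker is a serine) or empty vector (EV), with 3 RNA libraries per line and 12 in all. The labels call the lines stably transfected, while the study's methods describe NIH-3T3 lines made by viral infection and puromycin selection. EV cells still expressed their own mouse Cbl. All lines were at passages 13 to 17 and grew in medium with 10% DBS. Whether a line is a clone or a pool, and whether its libraries came from separate cultures, is not given in the sources used here, so p-values speak only to the spread among these libraries, which may be technical. In bulk RNA of this kind, fewer cells that express a gene and less RNA per cell cannot be told apart.

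Depth was 20724468 to 29684881 reads in genes per library. Values are reads per gene after median-of-ratios scaling of the 12 libraries together, called normalized reads. Tests were run with limma on log2(value + 1) over the 15266 genes whose mean reached 10 normalized reads in some line. A gene is called at a Benjamini-Hochberg adjusted p below 0.05 over all tested genes, and fold changes are on that log2 scale with their SE, and adjusted p-values are from limma throughout. Cbl had 805 ± 119 normalized reads in WT-CBL cells, 1711 ± 104 in CBL-70Z and 1514 ± 146 in CBL-Y371S, against 680.1 ± 51.9 in EV (SD, n = 3 each); WT-CBL libraries overlapped EV, and these counts hold reads of the introduced CBL only as far as they align to mouse Cbl. All 8 fibroblast markers were above 10 normalized reads in every line, but against EV 6 were lower and 1 higher in WT-CBL, and 7 were lower and 1 higher in each mutant. Their summed level was 822835.4 to 877751.4 in WT-CBL cells, 740039.7 to 751082.1 in CBL-70Z cells and 692892.9 to 735259.8 in CBL-Y371S cells, against 924472.2 to 964417.7 in EV. The summed level of 4 epithelial markers was 110.6 to 139.2 in WT-CBL cells, 62.8 to 86.5 in CBL-70Z cells and 114.7 to 119.5 in CBL-Y371S cells, against 64.2 to 97.1 in EV. Of 10 adipocyte markers Fabp4, Lpl and Retn were measurable, while Adipoq, Plin1 and Pparg stayed under 4 in every library and Lep was at 0. The summed level of the 10 adipocyte markers was 329.5 to 355.5 in WT-CBL cells, 227.1 to 260.6 in CBL-70Z cells and 204.8 to 222.5 in CBL-Y371S cells, against 320.3 to 345.2 in EV, and the part of these marker shifts in the results was not tested. WT-CBL replicate 3 stood apart from its line, with a median absolute log2 difference of 0.0824 from the other 2 libraries, against 0.0385 to 0.0569 for the remaining 11. Its difference from the other 2 followed exon length, with a Spearman rho of -0.551. The same measure was 0.395 and 0.397 for WT-CBL replicates 1 and 2, whose comparison included replicate 3. It was -0.128 to 0.156 for libraries of the other lines. The part of this library in the length trend of WT-CBL was not tested. Fold changes also followed exon length over 15095 genes, with Spearman rho of -0.41 for the WT-CBL line, -0.17 for CBL-70Z and -0.37 for CBL-Y371S against EV. A fit with a trend in length and GC content removed was therefore run as well. Exon length is that of all annotated exons of a gene, merged over its transcripts.

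The members moved by small steps, and the 3 CBL lines did not move alike. In WT-CBL 25 of 32 members were called against EV, 5 higher and 20 lower, where 41.8% of all tested genes were called, 20.8% higher and 21% lower. In CBL-70Z 8 were called, 7 higher and 1 lower (24.3% of all genes, with 12.2% and 12.1%), and in CBL-Y371S 19 were called, 10 higher and 9 lower (60.1% of all genes, 29.8% and 30.3%). The share of members called lower in WT-CBL, 62.5%, was thus above that of all genes, while the counts called in CBL-70Z and CBL-Y371S were near that of all genes. The median log2 fold change of the 32 members was -0.13 in WT-CBL cells, 0.01 in CBL-70Z and -0.00 in CBL-Y371S, beside a median over all tested genes of 0.0147, 0.005 and 0.0073 in the same lines. The member farthest from EV was Hsd17b7 in CBL-Y371S, at -0.47 on the log2 scale. Without overlap between the libraries of a line and those of EV, 5 members were higher and 19 lower in WT-CBL (26.3% and 24.9% of all genes), 10 higher and 6 lower in CBL-70Z (21.2% and 20.6%), and 13 higher and 11 lower in CBL-Y371S (32.8% and 33.3%). Acat2 and Fdps rose in all 3 CBL lines (6.66% of all genes did) and Cyp51 fell in all 3 (6.32%).

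**Figure D1:**
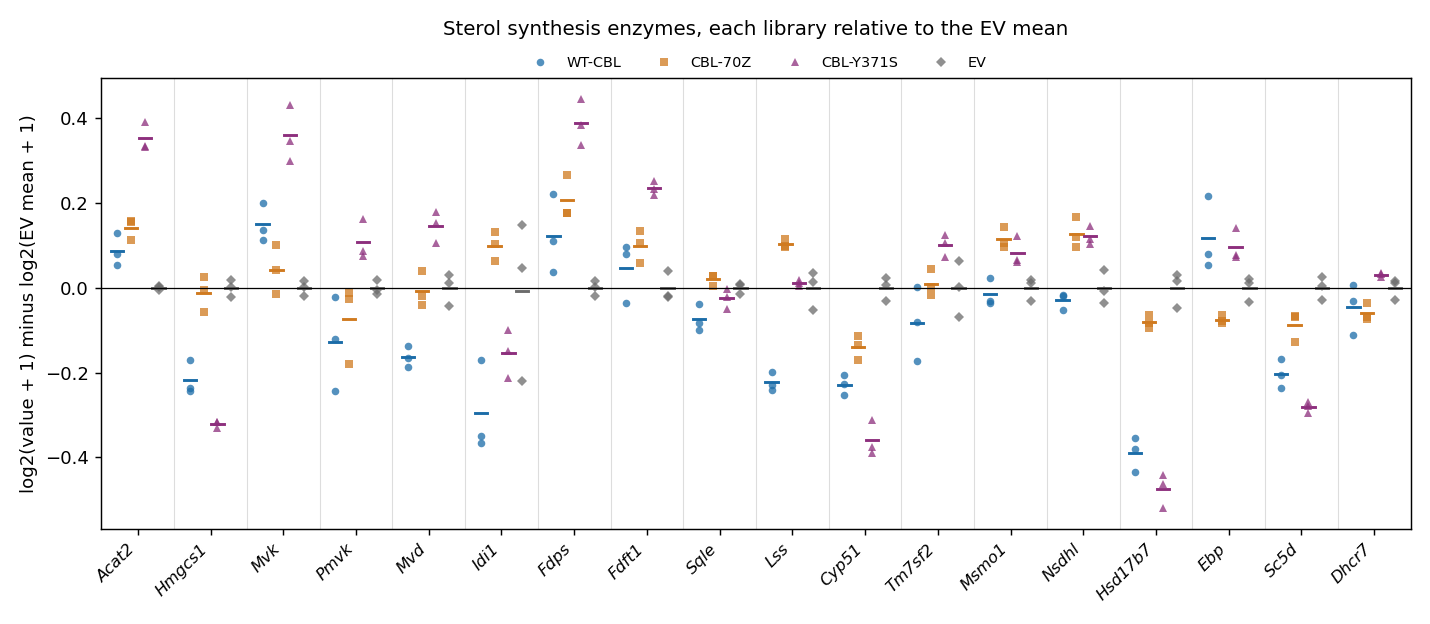
The 18 sterol enzymes in route order; each point is 1 library of the WT-CBL, CBL-70Z, CBL-Y371S and EV lines, plotted as log2(value + 1) minus that of the EV mean, and bars are means of 3 libraries. Hsd17b7, Hmgcs1, Cyp51 and Sc5d lie below EV in WT-CBL and CBL-Y371S, and Acat2, Mvk and Fdps lie highest in CBL-Y371S.

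Upstream sequences are shown for 6 members whose transcripts behaved differently: Hmgcs1 and Hsd17b7, which fell in WT-CBL and CBL-Y371S; Mvk and Acat2, which rose there; Fasn, which fell in WT-CBL; and Insig2, which went to opposite sides of EV. They are RefSeq sequences on GRCm38.p6, read 5′ to 3′ on the gene's strand from 250 bases before the annotated start up to that start or to the first base of the gene in the annotation used for lengths, whichever came first. Capitals mark the letters TCACNCCAC, a form of the sterol regulatory element bound by SREBP proteins, and CCAAT, the box bound by NF-Y, a frequent partner of SREBP proteins, on either strand (CCAAT reads ATTGG when it lies on the other strand). In the Fasn sequence a CCAAT and an ATTGG share letters and are capitalised as 1 run.
Hmgcs1, chr13:119690101-119690350, plus strand: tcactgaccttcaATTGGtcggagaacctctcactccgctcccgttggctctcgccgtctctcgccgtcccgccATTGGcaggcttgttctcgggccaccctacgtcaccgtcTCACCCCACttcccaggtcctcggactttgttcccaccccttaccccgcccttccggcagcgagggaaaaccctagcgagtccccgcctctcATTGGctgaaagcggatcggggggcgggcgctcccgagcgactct
Mvk, chr5:114444019-114444268, plus strand: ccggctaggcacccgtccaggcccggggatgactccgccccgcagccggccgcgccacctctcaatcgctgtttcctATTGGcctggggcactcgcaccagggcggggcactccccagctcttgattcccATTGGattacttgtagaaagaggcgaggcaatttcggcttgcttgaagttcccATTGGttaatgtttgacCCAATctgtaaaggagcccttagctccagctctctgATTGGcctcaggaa
Hsd17b7, chr1:169969242-169969455, minus strand: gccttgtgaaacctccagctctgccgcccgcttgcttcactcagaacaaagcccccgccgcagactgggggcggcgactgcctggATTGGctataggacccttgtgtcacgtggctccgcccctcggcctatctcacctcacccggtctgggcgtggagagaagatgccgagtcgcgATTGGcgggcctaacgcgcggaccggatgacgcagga
Acat2, chr17:12960748-12960975, minus strand: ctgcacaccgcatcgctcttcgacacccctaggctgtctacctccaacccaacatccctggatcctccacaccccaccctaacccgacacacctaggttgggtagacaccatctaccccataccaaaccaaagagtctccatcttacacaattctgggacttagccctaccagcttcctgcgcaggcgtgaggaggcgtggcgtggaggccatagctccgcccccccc
Fasn, chr11:120824548-120824797, minus strand: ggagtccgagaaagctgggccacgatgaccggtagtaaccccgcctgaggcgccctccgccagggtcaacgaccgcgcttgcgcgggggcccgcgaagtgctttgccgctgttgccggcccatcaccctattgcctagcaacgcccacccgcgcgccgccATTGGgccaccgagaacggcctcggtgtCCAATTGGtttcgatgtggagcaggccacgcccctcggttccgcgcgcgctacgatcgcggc
Insig2, chr1:121332590-121332839, minus strand: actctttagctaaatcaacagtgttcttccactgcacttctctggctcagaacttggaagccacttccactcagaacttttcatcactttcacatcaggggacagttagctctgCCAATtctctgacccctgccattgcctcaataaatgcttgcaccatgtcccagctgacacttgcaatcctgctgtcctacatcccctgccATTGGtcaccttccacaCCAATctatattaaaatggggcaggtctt
Windows from 250 bases before to 50 after the start were found for 25 of the 32 members. Within them this form of the sterol element occurred in 1 member, Hmgcs1, at 137 bases before the start. It occurred in 1.44% of 27025 genes and in 1.24% of all 32851 windows of this length. Other forms were not searched, so members without a match may still hold one. CCAAT on either strand occurred in 14 of 15 sterol enzymes, all but Acat2, in 2 of 5 fatty acid enzymes, Acly and Fasn, and in 4 of 5 control genes, all but Scap, against 41.1% of 27025 genes. Genes that fell and genes that rose both held CCAAT, as the printed Hsd17b7 and Mvk sequences show. A match describes these letters only and does not show that a factor binds there.

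Transcript levels of the members, per kb of annotated exon, spanned a far wider range than the changes between lines. Scd2 had the highest level, with 8529 ± 158 normalized reads per kb in WT-CBL cells, 10190 ± 174 in CBL-70Z, 8659 ± 65.4 in CBL-Y371S, against 9937 ± 87.3 in EV (SD, n = 3 each). Cyp51, Acly and Hmgcs1 came next in EV, and Acaca and Idi1 were lowest in every line. Scd2 held the first rank and Acaca the last in all 4 lines. The rank of Acaca rests on exons merged over all its transcripts, 17074 bases, and ranks by single transcripts were not computed. Neighbours in this order often differed by less than their spread, for example Srebf2 and Insig1 in EV.

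**Figure D2:**
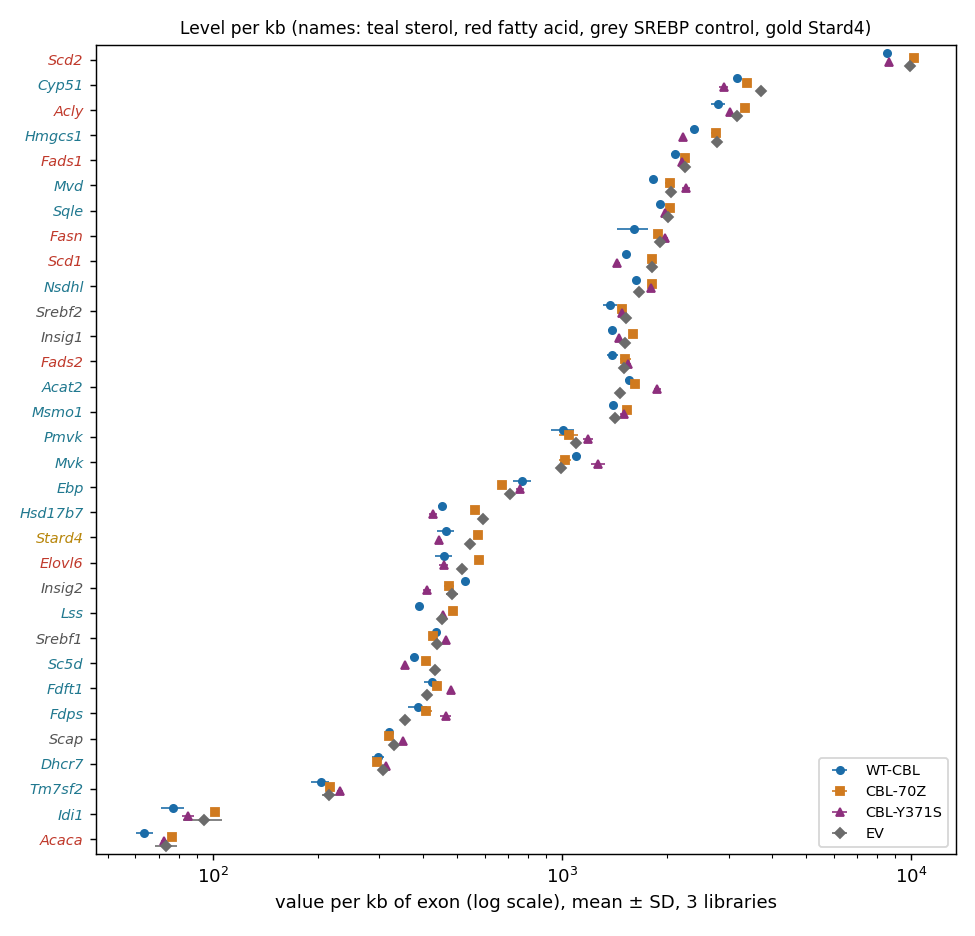
Level of each member per kb of exon on a log axis, as mean ± SD of 3 libraries of each of the 4 lines, ordered by the EV mean. Scd2 lies highest and Acaca lowest in all 4 lines.

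In the sterol arm 4 of 18 enzymes rose and 9 fell in WT-CBL against EV, with a median log2 fold change of -0.08. Of all tested genes 20.8% rose and 21% fell there. In CBL-70Z 5 rose and 1 fell (median 0.02), where 12.2% and 12.1% of all genes did. In CBL-Y371S 8 rose and 4 fell (median 0.09), where 29.8% and 30.3% of all genes did. Each line thus held sterol enzymes called in both directions. The 22.2% higher in WT-CBL was near the share of all genes, and the 22.2% lower in CBL-Y371S was below it. Acat2, the thiolase that joins acetyl-CoA units (chromosome 17, 12942890 to 12960747), had 3879, 3945 and 4084 normalized reads in WT-CBL, 4159, 4169 and 4036 in CBL-70Z, 4705, 4902 and 4710.2 in CBL-Y371S, against 3746, 3738 and 3719 in EV. Every library of the 3 CBL lines was above every EV library, and CBL-Y371S was highest. The log2 fold changes against EV were 0.09 ± 0.03, adjusted p = 0.0201 in WT-CBL, 0.14 ± 0.03, adjusted p = 0.00108 in CBL-70Z and 0.35 ± 0.03, adjusted p = 2.47e-09 in CBL-Y371S. The WT-CBL call was lost without WT-CBL replicate 3 or EV replicate 3 (adjusted p up to 0.0608).

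Hmgcs1, the synthase of HMG-CoA (chromosome 13, 119690379 to 119708260), moved the other way, with 11329, 10826 and 10777 normalized reads in WT-CBL, 12261, 12988 and 12706 in CBL-70Z, 10133, 10246 and 10232 in CBL-Y371S, against 12918, 12554 and 12777 in EV. WT-CBL and CBL-Y371S libraries were all below those of the other lines, and CBL-70Z overlapped EV. It fell in WT-CBL (-0.22 ± 0.03, adjusted p = 4.52e-06) and also in CBL-Y371S (-0.32 ± 0.03, adjusted p = 5.35e-09), while CBL-70Z was at -0.01 ± 0.03, adjusted p = 0.817. Mvk, mevalonate kinase, had 2868, 2916 and 3047 normalized reads in WT-CBL, 2729, 2622 and 2842 in CBL-70Z, 3369.9, 3578 and 3264 in CBL-Y371S, against 2653, 2682 and 2617 in EV. It was high in WT-CBL and highest in CBL-Y371S, both clear of EV, and its log2 fold changes were 0.15 ± 0.04, adjusted p = 0.00296 and 0.36 ± 0.04, adjusted p = 6.88e-08. Mvd, the decarboxylase that makes isopentenyl diphosphate, had 3396, 3343 and 3461 normalized reads in WT-CBL, 3756, 3699 and 3909.7 in CBL-70Z, 4306, 4233 and 4099 in CBL-Y371S, against 3835, 3888 and 3694 in EV. All WT-CBL libraries were below EV and all CBL-Y371S libraries above it (-0.16 ± 0.03, adjusted p = 0.000341 in WT-CBL, 0.15 ± 0.03, adjusted p = 0.00043 in CBL-Y371S). With the length and GC trend removed, the CBL-Y371S value of Mvd became -0.03, adjusted p = 0.372.

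Of the other early enzymes, Pmvk, phosphomevalonate kinase, was lower in WT-CBL (-0.13 ± 0.05, adjusted p = 0.0439), a call lost without WT-CBL replicate 1 or 2 or EV replicate 1, 2 or 3 (adjusted p up to 0.257). Idi1, the isomerase of isopentenyl diphosphate, was a low-count member, with 293, 256 and 259 normalized reads in WT-CBL and 341, 284 and 366 in EV. Its libraries overlapped between these lines although it was called lower (-0.29 ± 0.08, adjusted p = 0.00819), and the call was lost without EV replicate 3 (adjusted p up to 0.0666). Neither gene was called in CBL-70Z or CBL-Y371S against EV.

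Fdps, which makes farnesyl diphosphate, and Fdft1, the squalene synthase, were both highest in CBL-Y371S. Fdps had 1530.0, 1608 and 1738 normalized reads in WT-CBL, 1794, 1684 and 1686 in CBL-70Z, 1947, 2031 and 1884 in CBL-Y371S, against 1507, 1471 and 1492 in EV. Every CBL library exceeded every EV library, with log2 fold changes of 0.12 ± 0.04, adjusted p = 0.0284 in WT-CBL, 0.21 ± 0.04, adjusted p = 0.00142 in CBL-70Z and 0.39 ± 0.04, adjusted p = 1.81e-07 in CBL-Y371S. The WT-CBL call was lost without WT-CBL replicate 3 or EV replicate 1, 2 or 3 (adjusted p up to 0.152). Against EV, Fdft1 was called in CBL-Y371S alone (0.24 ± 0.04, adjusted p = 1.71e-05), with 0.10 ± 0.04, adjusted p = 0.0586 in CBL-70Z and 0.05 ± 0.04, adjusted p = 0.345 in WT-CBL. Sqle, squalene epoxidase, fell slightly in WT-CBL (-0.07 ± 0.03, adjusted p = 0.0265), which did not hold without WT-CBL replicate 1 or 2 or EV replicate 1 or 3 (adjusted p up to 0.0942).

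Lss, lanosterol synthase, closes the sterol rings. It had 4177, 4268 and 4143 normalized reads in WT-CBL, 5234, 5247 and 5302 in CBL-70Z, 4934, 4961 and 4907 in CBL-Y371S, against 4946, 5020.3 and 4721 in EV. WT-CBL was below and CBL-70Z above EV without overlap, and CBL-Y371S lay among the EV libraries. Its log2 fold changes were -0.22 ± 0.03, adjusted p = 3.52e-06 in WT-CBL and 0.10 ± 0.03, adjusted p = 0.00916 in CBL-70Z, the second lost without EV replicate 3 (adjusted p up to 0.0719). The annotated exons of Lss, merged over its transcripts, make 10787 bases. With the length and GC trend removed it was at -0.05, adjusted p = 0.244 in WT-CBL and at 0.28, adjusted p = 4e-08 in CBL-Y371S.

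Among the enzymes that turn lanosterol into cholesterol, Cyp51, the lanosterol demethylase (chromosome 5, 4081145 to 4104746), was the only member lower in all 3 CBL lines. It had 14063, 13812 and 14256 normalized reads in WT-CBL, 14978, 15202 and 14617 in CBL-70Z, 12550.0, 13254 and 12688 in CBL-Y371S, against 16537, 16099 and 16721 in EV. No CBL library reached the EV libraries, and CBL-Y371S was lowest. The log2 fold changes were -0.23 ± 0.03, adjusted p = 2.28e-06 in WT-CBL, -0.14 ± 0.03, adjusted p = 0.000836 in CBL-70Z and -0.36 ± 0.03, adjusted p = 1.07e-09 in CBL-Y371S, and each of the 3 calls held under all 18 alternatives tried. Hsd17b7, a ketosteroid reductase of the demethylation steps (chromosome 1, 169949535 to 169969241), had the largest changes of any member against EV, with 2371, 2243 and 2329.8 normalized reads in WT-CBL, 2899, 2866 and 2842 in CBL-70Z, 2234, 2114 and 2202 in CBL-Y371S, against 3069, 2934 and 3096 in EV. WT-CBL and CBL-Y371S were both far below EV, while CBL-70Z was just below it without overlap. It fell in WT-CBL (-0.39 ± 0.03, adjusted p = 3.12e-08) and also in CBL-Y371S (-0.47 ± 0.03, adjusted p = 2.5e-10), and CBL-70Z was at -0.08 ± 0.03, adjusted p = 0.0885. Sc5d, a sterol desaturase, had 1874, 1827 and 1787 normalized reads in WT-CBL, 2008, 2010.4 and 1929 in CBL-70Z, 1716, 1747 and 1736 in CBL-Y371S, against 2142, 2064 and 2111 in EV. It showed the same order as Hsd17b7, with -0.20 ± 0.03, adjusted p = 5.15e-05 in WT-CBL, -0.09 ± 0.03, adjusted p = 0.0575 in CBL-70Z and -0.28 ± 0.03, adjusted p = 2.94e-07 in CBL-Y371S.

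Msmo1 and Nsdhl, which act beside Hsd17b7 in removing methyl groups from the sterol, did not follow it. Msmo1 had 8496, 8531 and 8855 normalized reads in WT-CBL, 9370.1, 9621 and 9310.5 in CBL-70Z, 9122, 9485 and 9089 in CBL-Y371S, against 8786, 8529 and 8821 in EV. Both mutants were above EV and WT-CBL overlapped EV (0.11 ± 0.03, adjusted p = 0.00439 in CBL-70Z, 0.08 ± 0.03, adjusted p = 0.0137 in CBL-Y371S). The CBL-Y371S call of Msmo1 was lost without CBL-Y371S replicate 2 or EV replicate 2 (adjusted p up to 0.08). Nsdhl had 4561, 4666 and 4679 normalized reads in WT-CBL, 5141, 5309 and 5056 in CBL-70Z, 5085, 5126 and 5234 in CBL-Y371S, against 4614, 4703 and 4876 in EV. It was likewise high in both mutants (0.13 ± 0.03, adjusted p = 0.00278 in CBL-70Z, 0.12 ± 0.03, adjusted p = 0.00117 in CBL-Y371S), and both calls held under all 18 alternatives. Ebp, the sterol isomerase, had 1701, 1732 and 1905 normalized reads in WT-CBL, 1568, 1545 and 1551 in CBL-70Z, 1722, 1807 and 1728 in CBL-Y371S, against 1663, 1652 and 1599.9 in EV. It was above EV in WT-CBL (0.12 ± 0.04, adjusted p = 0.0233) and CBL-Y371S (0.10 ± 0.04, adjusted p = 0.0421). The WT-CBL call was lost without WT-CBL replicate 3 or EV replicate 3 (adjusted p up to 0.142), and the CBL-Y371S call without CBL-Y371S replicate 2 or 3 or EV replicate 1, 2 or 3 (adjusted p up to 0.161). Tm7sf2, a sterol reductase, and Dhcr7, the reductase of the last step, were called in no line against EV (32.2% of all genes were not), with log2 fold changes of -0.08, 0.01 and 0.10 for Tm7sf2 and -0.04, -0.06 and 0.03 for Dhcr7, in the order WT-CBL, then CBL-70Z, then CBL-Y371S.

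In the fatty acid arm all 8 enzymes fell in WT-CBL against EV, with log2 fold changes of -0.26 to -0.09 (median -0.19), where 21% of all genes fell. The libraries of the 2 lines did not overlap for any of them (24.9% of all genes were lower without overlap). In CBL-70Z 2 rose and none fell (median 0.03), where 12.2% and 12.1% of all genes did. In CBL-Y371S none rose and 3 fell (median -0.04), where 29.8% and 30.3% of all genes did. The 37.5% lower in CBL-Y371S was thus near the share of all genes. Acly, which makes cytosolic acetyl-CoA from citrate and so feeds both arms, had 15082, 15302 and 14029 normalized reads in WT-CBL, 17541, 17862 and 17710.0 in CBL-70Z, 15981, 16006 and 15912 in CBL-Y371S, against 16803, 16862 and 16422 in EV. WT-CBL was low and CBL-70Z high, with CBL-Y371S between WT-CBL and EV. It fell in WT-CBL (-0.17 ± 0.03, adjusted p = 8.29e-05) and rose in CBL-70Z (0.08 ± 0.03, adjusted p = 0.0403), but the second call was lost without CBL-70Z replicate 1, 2 or 3 or EV replicate 1, 2 or 3 (adjusted p up to 0.148). Acaca, the carboxylase that commits acetyl-CoA to the arm, was lower in WT-CBL (-0.21 ± 0.05, adjusted p = 0.00207), with 1121, 1124 and 1016 normalized reads there and 1339, 1264 and 1161 in EV. Fasn, fatty acid synthase (chromosome 11, 120805846 to 120824547), had 18195, 18939 and 15523 normalized reads in WT-CBL, 20660.4, 20468 and 20576 in CBL-70Z, 22096, 20992 and 21507 in CBL-Y371S, against 20858, 21434 and 20383 in EV. All WT-CBL libraries were below the others and replicate 3 was the lowest, while both mutants overlapped EV. The log2 fold change of Fasn was -0.26 ± 0.05, adjusted p = 0.00024 in WT-CBL, and its call held under all 18 alternatives, that without WT-CBL replicate 3 included.

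**Figure D3:**
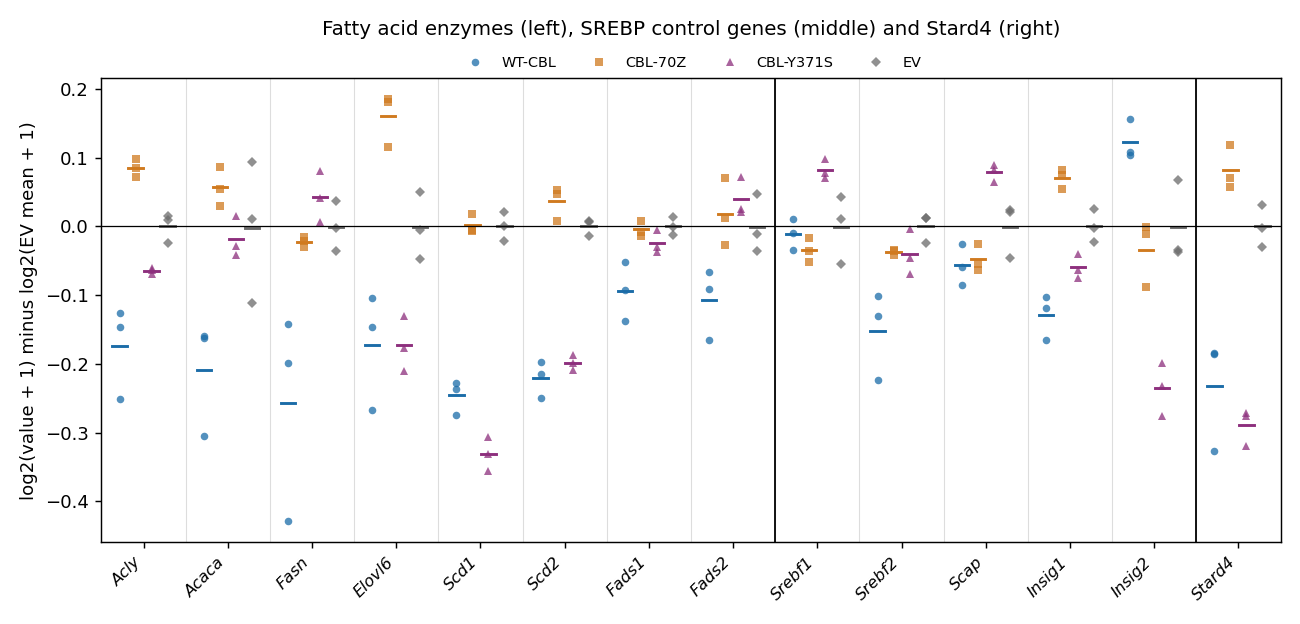
The 8 fatty acid enzymes, the 5 SREBP control genes and Stard4; each point is 1 library of the WT-CBL, CBL-70Z, CBL-Y371S and EV lines as log2(value + 1) minus that of the EV mean, and bars are means of 3 libraries. All 8 fatty acid enzymes lie below EV in WT-CBL, and Scd1, Scd2, Elovl6 and Stard4 lie below EV in CBL-Y371S as well.

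Elovl6, Scd1 and Scd2, which elongate and desaturate the chain, fell in CBL-Y371S as well. Elovl6, the elongase of palmitate, had 2999.8, 3090.2 and 2760.2 normalized reads in WT-CBL, 3775, 3764 and 3598 in CBL-70Z, 3035, 2869.6 and 2938 in CBL-Y371S, against 3439.5, 3310.5 and 3215 in EV. WT-CBL and CBL-Y371S were low, CBL-70Z was high, and no CBL line overlapped EV. The log2 fold changes were -0.17 ± 0.04, adjusted p = 0.00151 in WT-CBL, 0.16 ± 0.04, adjusted p = 0.00479 in CBL-70Z and -0.17 ± 0.04, adjusted p = 0.000784 in CBL-Y371S. With the length and GC trend removed they were -0.08, adjusted p = 0.0555 in WT-CBL and 0.02, adjusted p = 0.671 in CBL-Y371S. Scd1, a stearoyl-CoA desaturase that makes monounsaturated chains (chromosome 19, 44394455 to 44407879), had 7520.3, 7566 and 7326 normalized reads in WT-CBL, 8814, 8968 and 8829 in CBL-70Z, 6923, 7038 and 7164 in CBL-Y371S, against 8987, 8731 and 8857 in EV. CBL-70Z overlapped EV and the other 2 CBL lines were below both, CBL-Y371S lowest. Scd1 fell in WT-CBL (-0.25 ± 0.03, adjusted p = 3.96e-07) and CBL-Y371S (-0.33 ± 0.03, adjusted p = 1.11e-09), and both calls held under all 18 alternatives. Scd2, the related desaturase on the same chromosome, had 46765, 47371 and 45664 normalized reads in WT-CBL, 56114, 56329.5 and 54582 in CBL-70Z, 47316, 46954 and 47669 in CBL-Y371S, against 54556, 53743 and 54582 in EV. It showed the same split (-0.22 ± 0.03, adjusted p = 1.17e-06 in WT-CBL, 0.04 ± 0.03, adjusted p = 0.336 in CBL-70Z, -0.20 ± 0.03, adjusted p = 1.07e-06 in CBL-Y371S).

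Fads1 and Fads2, which desaturate polyunsaturated chains, were lower in WT-CBL (-0.09 ± 0.03, adjusted p = 0.00676 for Fads1, -0.11 ± 0.03, adjusted p = 0.0143 for Fads2), and the Fads2 call was lost without EV replicate 2 (adjusted p up to 0.0862). In both mutants Fads1 and Fads2 were within -0.02 to 0.04 of EV and were not called.

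The genes that control SREBP proteins moved without one direction. Their log2 fold changes against EV ran from -0.23 (Insig2 in CBL-Y371S) to 0.12 (Insig2 in WT-CBL). Srebf2 fell in WT-CBL (-0.15 ± 0.03, adjusted p = 0.000445), with 10013, 10221 and 9384 normalized reads there and 11049, 11052 and 10779 in EV, and was not called in the mutants. Srebf1 and Scap rose slightly in CBL-Y371S (0.08 ± 0.03, adjusted p = 0.0279 for Srebf1, 0.08 ± 0.03, adjusted p = 0.0333 for Scap). The Srebf1 call was lost without CBL-Y371S replicate 1 or 2 or EV replicate 1 (adjusted p up to 0.172), and the Scap call without CBL-Y371S replicate 1 or 2 or EV replicate 3 (adjusted p up to 0.167). Insig1, which holds SCAP back and is itself an SREBP target, was lower in WT-CBL (-0.13 ± 0.03, adjusted p = 0.000777), with 4190.4, 4375 and 4329 normalized reads there and 4628, 4784 and 4691 in EV. It was at 0.07 ± 0.03, adjusted p = 0.0689 in CBL-70Z and -0.06 ± 0.03, adjusted p = 0.0676 in CBL-Y371S.

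Insig2, the other anchor protein (chromosome 1, 121304353 to 121332589), had 1809, 1815 and 1875 normalized reads in WT-CBL, 1681, 1669.8 and 1583 in CBL-70Z, 1390.2, 1466 and 1432 in CBL-Y371S, against 1764, 1641 and 1644 in EV. WT-CBL was above EV and CBL-Y371S below it without overlap. Insig2 rose in WT-CBL (0.12 ± 0.04, adjusted p = 0.0135), a call lost without EV replicate 2 or 3 (adjusted p up to 0.0648), and fell in CBL-Y371S (-0.23 ± 0.04, adjusted p = 2.25e-05). Stard4 had 2677, 2672 and 2425 normalized reads in WT-CBL, 3194, 3303 and 3163 in CBL-70Z, 2518, 2512 and 2435 in CBL-Y371S, against 3107, 2979 and 3037 in EV. Its WT-CBL and CBL-Y371S libraries were all below EV and its CBL-70Z libraries all above. It fell in WT-CBL (-0.23 ± 0.04, adjusted p = 4.55e-05) and CBL-Y371S (-0.29 ± 0.04, adjusted p = 1.03e-06), while CBL-70Z was at 0.08 ± 0.04, adjusted p = 0.115.

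The arms were compared as the median over their genes of the log2 ratio to the EV mean, library by library. The fatty acid median was -0.15, -0.13 and -0.26 in WT-CBL, 0.02, 0.04 and 0.01 in CBL-70Z, -0.04, -0.05 and -0.05 in CBL-Y371S, against 0.01, 0.01 and -0.03 in EV. The sterol median was -0.10, -0.14 and -0.02 in WT-CBL, 0.01, 0.01 and 0.04 in CBL-70Z, 0.07, 0.09 and 0.07 in CBL-Y371S, against 0.01, -0.01 and 0.00 in EV. In CBL-Y371S the arm medians thus lay on either side of EV in all 3 libraries. Their fatty acid minus sterol difference was -0.13 ± 0.01, against -0.01 ± 0.03 in EV (SD, n = 3 each). In WT-CBL both arms were below EV and the difference between them, -0.10 ± 0.13, was within the spread of its libraries. It was -0.06 and 0.00 in WT-CBL replicates 1 and 2 and -0.24 in replicate 3. In CBL-70Z the difference, 0.00 ± 0.04, was near 0 in each library. Without WT-CBL replicate 3 the median fold change in WT-CBL was -0.15 for fatty acid enzymes and -0.11 for sterol enzymes. The sterol median of CBL-Y371S hides both directions, since Acat2, Mvk and Fdps rose by 0.35 to 0.39 there while Hmgcs1, Cyp51, Hsd17b7 and Sc5d fell. The fatty acid median of CBL-Y371S also covers a split. Elovl6, Scd1 and Scd2 were called lower, where 30.3% of all genes were, and the other enzymes were not called. Fasn and Fads2 were each at 0.04.

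**Figure D4:**
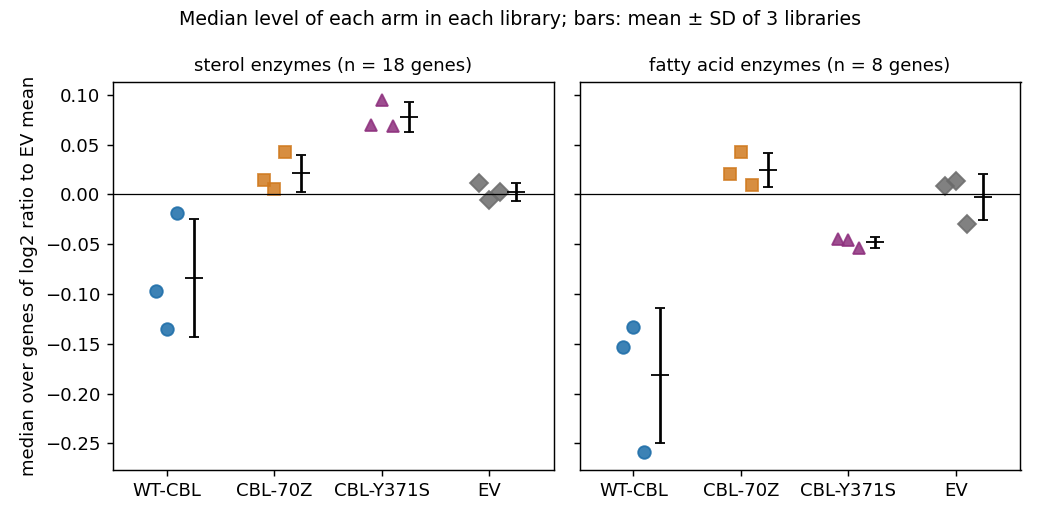
Median log2 ratio to the EV mean over the 18 sterol enzymes (left) and the 8 fatty acid enzymes (right), 1 point per library, with the mean ± SD of 3 libraries beside them. CBL-Y371S lies above EV in the sterol arm and below it in the fatty acid arm, and WT-CBL replicate 3 lies apart in both.

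Across roles, 8 of 32 members were lower than EV in both WT-CBL and CBL-Y371S and, in each case, higher in CBL-70Z than in either. They were Hmgcs1, Cyp51, Hsd17b7, Sc5d, Elovl6, Scd1, Scd2 and Stard4, and 10.6% of all tested genes met all these criteria. With the length and GC trend removed, Elovl6 was no longer called against EV in either line, and Sc5d no longer differed by the test between CBL-70Z and WT-CBL (0.05, adjusted p = 0.165) or between CBL-70Z and CBL-Y371S (0.04, adjusted p = 0.259). These genes belong to both arms and to transport. Another 4 members, Acat2, Mvk, Fdps and Ebp, were higher than EV in both WT-CBL and CBL-Y371S. All 4 are sterol enzymes. They made up 12.5% of the members and 22.2% of the sterol enzymes, on either side of the 17.1% of all genes. With the length and GC trend removed, Acat2, Mvk and Ebp lost their WT-CBL calls and Ebp its CBL-Y371S call. Opposite sides of EV were taken by 5 members, Mvd, Lss, Acly, Elovl6 and Insig2 (2.95% of all genes). None of these 5 kept both of its calls under all 18 alternatives. The call held in 16 of 18 for Mvd in CBL-Y371S, 16 for Lss in WT-CBL and 10 for Acly in CBL-70Z. It held in 16 for Elovl6 in CBL-Y371S and 16 for Insig2 in WT-CBL. WT-CBL and CBL-Y371S share the EV libraries in these counts, and the groupings were made after the values were seen.

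Set against WT-CBL, most members stood higher in the mutants. In CBL-70Z 21 members were higher and 3 lower than in WT-CBL (35.2% of all genes were called, 18.9% and 16.3%), and 21 and 3 were so without overlap of libraries (23.2% and 22.1% of all genes), with a median of 0.12. All 8 fatty acid enzymes were higher, by 0.09 to 0.33 (median 0.25), and 10 of 18 sterol enzymes (median 0.09). The largest differences were in Idi1 (0.40 ± 0.08, adjusted p = 0.000839), Elovl6 (0.33 ± 0.04, adjusted p = 1.7e-06), Lss (0.33 ± 0.03, adjusted p = 2.27e-08) and Stard4 (0.31 ± 0.04, adjusted p = 1.51e-06). Mvk (-0.11), Ebp (-0.19) and Insig2 (-0.16) were lower. The Mvk call was lost without WT-CBL replicate 3 or CBL-70Z replicate 1 or 2 (adjusted p up to 0.157). With the length and GC trend removed, 7 of 8 fatty acid enzymes were higher, Acaca being the exception (0.08, adjusted p = 0.174). Mvk, Sqle, Msmo1 and Sc5d lost their calls too, while Acat2 and Pmvk became higher (0.10, adjusted p = 0.00469 for Acat2, 0.17, adjusted p = 0.00538 for Pmvk).

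In CBL-Y371S 19 members were higher and 5 lower than in WT-CBL (40% of all genes were called, 18.5% and 21.5%), with a median of 0.10. The sterol enzymes had 10 higher and 3 lower (median 0.15), led by Mvd (0.31 ± 0.03, adjusted p = 1.81e-07), Fdps (0.27 ± 0.04, adjusted p = 6.03e-05) and Acat2 (0.27 ± 0.03, adjusted p = 4.63e-07). The fatty acid enzymes had 5 higher and 1 lower (median 0.09), with Fasn highest (0.30 ± 0.05, adjusted p = 4.55e-05) and Scd1 lower (-0.09 ± 0.03, adjusted p = 0.0119). Insig2 was the lowest member (-0.36 ± 0.04, adjusted p = 3.42e-07). Higher in both mutants were 11 members (5.29% of all genes), namely Mvd, Lss, Msmo1, Nsdhl, Acly, Acaca, Fasn, Fads1, Fads2, Srebf2 and Insig1, and lower in both was Insig2 (6.32%). Both comparisons share the WT-CBL libraries, replicate 3 included. Of the 11, all but Msmo1 and Nsdhl were called lower than EV in WT-CBL. Acaca, Fasn, Fads1, Fads2, Srebf2 and Insig1 were called against EV in neither mutant. Hmgcs1, Mvk, Cyp51, Hsd17b7 and Scd1 took opposite sides of WT-CBL in the mutants (7.84%). Several of these calls rested on few libraries. In CBL-Y371S against WT-CBL, that of Hsd17b7 was lost without WT-CBL replicate 1 or 3 or CBL-Y371S replicate 2 or 3 (adjusted p up to 0.209), that of Scd1 without CBL-Y371S replicate 1 (adjusted p up to 0.0618), and that of Msmo1 without CBL-Y371S replicate 2 (adjusted p up to 0.0511). The Fads1 call was lost without WT-CBL replicate 1 or 3 or CBL-Y371S replicate 1, 2 or 3 (adjusted p up to 0.135), and the Insig1 call without WT-CBL replicate 1 or CBL-Y371S replicate 1, 2 or 3 (adjusted p up to 0.199). The Cyp51 call in CBL-70Z against WT-CBL was lost without WT-CBL replicate 2 or CBL-70Z replicate 1 or 2 (adjusted p up to 0.0821). With the length and GC trend removed, CBL-Y371S against WT-CBL stood at -0.02, adjusted p = 0.539 for Hmgcs1, -0.00, adjusted p = 0.985 for Hsd17b7 and -0.04, adjusted p = 0.201 for Scd1. Fads1 and Srebf1 lost their calls as well, and Sqle, Idi1 and Elovl6 became higher. Msmo1 in CBL-70Z against WT-CBL was then at 0.05, adjusted p = 0.16.

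Between the mutants, 13 members were higher and 10 lower in CBL-70Z than in CBL-Y371S (50.4% of all genes were called, 25.9% and 24.5%), and 15 and 12 were so without overlap of libraries (29.4% and 29% of all genes). The higher ones were led by Hsd17b7 (0.39 ± 0.03, adjusted p = 1.04e-08), Stard4 (0.37 ± 0.04, adjusted p = 8.5e-08), Scd1 (0.33 ± 0.03, adjusted p = 3.76e-09), Elovl6 (0.33 ± 0.04, adjusted p = 8.01e-07) and Hmgcs1 (0.31 ± 0.03, adjusted p = 2.48e-08). The lower ones were led by Mvk (-0.32 ± 0.04, adjusted p = 7.87e-07) and Acat2 (-0.21 ± 0.03, adjusted p = 5.15e-06). No fatty acid enzyme was called lower in CBL-70Z and 4 of 8 were higher, while sterol enzymes had 6 higher and 8 lower. With the length and GC trend removed, 5 fatty acid enzymes were higher and 2 lower, the lower ones being Acaca (-0.21, adjusted p = 0.000396) and Fasn (-0.11, adjusted p = 0.00369), and sterol enzymes had 3 higher and 7 lower. Mvd, Idi1, Sc5d, Dhcr7, Pmvk and Srebf1 lost their calls, Msmo1 became lower (-0.14, adjusted p = 0.000377), Fads2 became higher (0.10, adjusted p = 0.0158) and Lss turned to -0.12, adjusted p = 0.00268.

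Gene length and GC content moved with these values. Over the 32 members the log2 fold change had a Spearman rho with exon length of -0.38 in WT-CBL cells, -0.01 in CBL-70Z and -0.35 in CBL-Y371S. The same lines had rho with GC content of 0.37, -0.23 and 0.59, while CBL-70Z against CBL-Y371S had -0.75 with GC content. The median exon length was 4315 bases for sterol and 5371.5 for fatty acid enzymes. With a trend in both removed over all genes, the fatty acid median in WT-CBL was -0.13, with 6 of 8 enzymes lower, and the 2 that lost their call were Acaca (0.06, adjusted p = 0.327) and Elovl6 (-0.08, adjusted p = 0.0555). Acaca, with the longest merged exons of the set at 17074 bases, moved to 0.35, adjusted p = 3.95e-07 in CBL-Y371S. Its longest single transcript was shorter than that of Fasn, with 9478 against 10015 stretches of 36 bases. A trend in the length of single transcripts was not tried. The sterol median in CBL-Y371S was then 0.06. The fatty acid median there was -0.04, with 2 of 8 enzymes called higher and 2 lower. Hmgcs1, Cyp51, Hsd17b7, Sc5d, Scd1, Scd2 and Stard4 were still called lower in both WT-CBL and CBL-Y371S. Fasn was still lower in WT-CBL (-0.11, adjusted p = 0.00536) and became higher in CBL-Y371S (0.19, adjusted p = 1.36e-05). Of the 5 members higher in WT-CBL, 3 lost their calls, with 0.04, adjusted p = 0.301 for Acat2, 0.07, adjusted p = 0.107 for Mvk and 0.06, adjusted p = 0.23 for Ebp, and Fdps and Insig2 stayed called (0.12, adjusted p = 0.0304 for Fdps, 0.10, adjusted p = 0.0245 for Insig2). Sqle also lost its WT-CBL call (-0.03, adjusted p = 0.424) and Nsdhl became lower there (-0.07, adjusted p = 0.0447). In CBL-Y371S the calls of Srebf1 (0.04, adjusted p = 0.232) and Ebp (0.04, adjusted p = 0.45) were lost and Sqle became higher (0.06, adjusted p = 0.0493). In CBL-70Z Acaca (0.14, adjusted p = 0.0211) and Fdft1 (0.12, adjusted p = 0.0165) became higher and Hsd17b7 (-0.10, adjusted p = 0.0237) and Sc5d (-0.11, adjusted p = 0.00716) lower. The share of all genes called with the trend removed is not given here. The part of length or GC content in each fold change was not tested further.

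**Figure D5:**
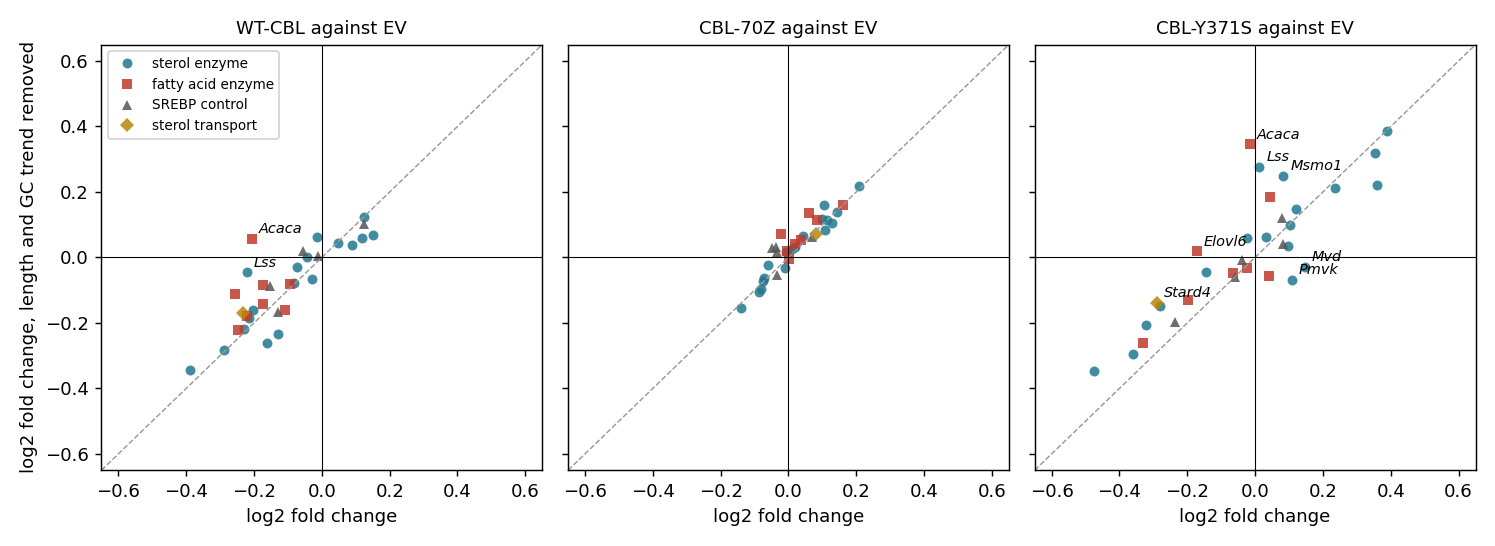
Log2 fold change of the 32 members against EV (horizontal) and the same with the length and GC trend removed (vertical), for each CBL line in a panel of its own; the dashed line marks equal values and names mark shifts over 0.15. Acaca and Lss move upward in WT-CBL and CBL-Y371S, and CBL-70Z stays near the line.

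Some counts are less certain because paired reads of 36 bases from a kit that does not mark strand may not separate near copies or overlapping genes. Of the 36-base words of Acat2, 49.1% also occur in Acat3, and of those of Acaca 55.7% occur in Gm5182. Acat3 had 46.4 ± 5.14 normalized reads in WT-CBL cells, 32.2 ± 4.96 in CBL-70Z and 37.6 ± 13.7 in CBL-Y371S, against 41.5 ± 6.80 in EV (SD, n = 3 each). Idi1 shares 21.7% with Gm13502, which itself had 1065 ± 26.8 normalized reads in WT-CBL cells, 1384.5 ± 39.4 in CBL-70Z and 909 ± 29.1 in CBL-Y371S, against 1226 ± 21.5 in EV, more than Idi1. Acaca and Idi1 were also the lowest members per kb of exon, and the part of shared words or of the length used in these ranks was not tested. Fdft1 overlaps Ctsb at 774 exon bases, Scap and Hmgcs1 overlap antisense genes at 985 and 557, and Fdps overlaps Gm43738 on its own strand at 1124. Whether such reads were counted, dropped or assigned elsewhere is not given in the sources used here.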

How the data were processed

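RNA-seq libraries (Illumina TruSeq RNA kit v2, paired reads of 36 bases, strand not marked) were made from 3 samples of each of 4 NIH-3T3 lines. The authors checked reads with FastQC 0.10.1, aligned them to GRCm38 using TopHat2 2.0.13 on Bowtie2 2.2.4.0, counted them per gene with HTSeq 0.9.1 and deposited 3 tables of counts divided by DESeq2 size factors, a normalized signal, each table pairing 1 CBL line with EV. Versions are those of the submitters' processing notes and the study's methods. The deposited tables also hold the authors' own fold changes, test scores and p-values, which were not used.

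Each signal column was a whole multiple of the worth of 1 read for 100% of 705222 values (tolerance 1e-06), so whole reads were recovered, and EV reads were identical in the 3 tables. A table's 42847 lines covered 39179 gene IDs, of which 878 were repeated with the same values and used once. The 12 libraries (20724468 to 29684881 reads) were rescaled together by median-of-ratios. The 15266 genes whose mean reached 10 in some line entered limma 3.58.1 (R 4.3.3) with a mean-variance trend on log2(value + 1), all 4 lines in 1 fit without a replicate term, for 6 comparisons, with Benjamini-Hochberg adjustment at 0.05 over all tested genes. The members and lists were chosen with earlier results of these data known. Members called without overlap of libraries in at least 2 of the 3 comparisons with EV are given library by library, and the others by fold change or range. All library values of Fasn, and those of Idi1, Acaca, Srebf2 and Insig1 in WT-CBL and EV, were added after the values were seen.

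Alternatives were edgeR 4.0.16 with TMM, DESeq2 1.42.0, TMM scaling, a scale joined through EV, pseudocounts of 0.5 and 5, no filter, a filter at a mean of 50, only the lines compared, a replicate block, a length and GC trend removed (spline with 5 degrees of freedom) with and without the block, and each library left out. Figures were drawn with matplotlib 3.10.9.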

Additional observations from a re-analysis of the deposited data

How the results depend on the processing

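Of the settings tried, removing the length and GC trend moved the most. With it, alone or with the replicate block, the fatty acid median was -0.13 in WT-CBL and 0.062 in CBL-70Z against EV and 0.21 in CBL-70Z against WT-CBL, and the sterol median was 0.062 in CBL-Y371S against EV, 0.17 in CBL-Y371S against WT-CBL and -0.059 in CBL-70Z against CBL-Y371S. Reversed there were Acaca in WT-CBL (0.057) and CBL-Y371S (0.35) against EV and between the mutants (-0.21), Mvd in CBL-Y371S against EV (-0.029) and between the mutants (0.044), Elovl6 in CBL-Y371S against EV (0.018) and against WT-CBL (0.10), and, between the mutants, Fads2 (0.10), Pmvk (0.0052), Msmo1 (-0.14) and Lss (-0.12). Sqle in CBL-Y371S against EV (0.059) reversed without the block. The cause was not tested. Fitting only the lines compared called 13 members in CBL-70Z against EV, in place of 8. The share of all genes called in that fit is not given here, so this rise is not read as particular to the members.

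With 1 library left out, members called ranged from 18 to 23 in WT-CBL cells, from 6 to 7 in CBL-70Z cells and from 15 to 19 in CBL-Y371S cells against EV, 22 to 26 in CBL-70Z against WT-CBL, 19 to 26 in CBL-Y371S against WT-CBL, and 21 to 23 between the mutants. In the same order the sterol median ranged from -0.11 to -0.056, 0.0032 to 0.020, 0.069 to 0.098, 0.079 to 0.12, 0.12 to 0.16 and -0.046 to -0.036, and the fatty acid median from -0.22 to -0.15, 0.0033 to 0.036, -0.073 to -0.037, 0.22 to 0.28, 0.060 to 0.11 and 0.10 to 0.12. The shares of all genes called in these fits are not given here, so the counts of members are not set against them.

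Replicate numbers did not pair the libraries. Of 18 same-numbered pairs across lines, 1 had a correlation of deviations over 0.1, and 3 libraries correlated best with their own number. With the replicate block 2 of 192 member results lost their call, and none gained one or reversed.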

Other observations

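Of 66 further genes of sterol and fatty acid metabolism, 59 were tested. Against EV 16 were higher and 19 lower in WT-CBL (20.8% and 21% of all tested genes), 10 higher and 9 lower in CBL-70Z (12.2% and 12.1%), and 21 higher and 25 lower in CBL-Y371S (29.8% and 30.3%). Of 6 genes that supply acetyl-CoA and NADPH, 5 were called higher in WT-CBL, 4 called higher in CBL-70Z and 5 called higher in CBL-Y371S, and none was called lower. Slc25a1 was not called in WT-CBL, Slc25a1 and Me1 were not called in CBL-70Z, and Idh1 was not called in CBL-Y371S. G6pdx, which opens the pentose phosphate route, had log2 fold changes of 0.18 ± 0.03, adjusted p = 8.36e-05 in WT-CBL, 0.21 ± 0.03, adjusted p = 3.13e-05 in CBL-70Z and 0.43 ± 0.03, adjusted p = 2.53e-10 in CBL-Y371S. Pgd, the next NADPH source of that route, had 0.24 ± 0.03, adjusted p = 1.16e-06 in WT-CBL, 0.25 ± 0.03, adjusted p = 9.6e-07 in CBL-70Z and 0.51 ± 0.03, adjusted p = 7.27e-12 in CBL-Y371S.

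Abca1, which exports cholesterol from the cell, had 788, 778 and 606 normalized reads in WT-CBL, 710.2, 761 and 712 in CBL-70Z, 379.6, 339 and 361 in CBL-Y371S, against 1023, 988 and 966 in EV. All CBL libraries were below EV and those of CBL-Y371S were lowest (-0.46 ± 0.08, adjusted p = 5.63e-05 in WT-CBL, -0.45 ± 0.08, adjusted p = 0.000159 in CBL-70Z, -1.46 ± 0.08, adjusted p = 3.02e-12 in CBL-Y371S). Abcg1, another sterol exporter, was a low-count gene, with 11.9 ± 3.0 normalized reads in EV, close to the filter at 10. Its level was 37.3 ± 8.1 for CBL-Y371S, 32.4 ± 0.9 for WT-CBL and 17.5 ± 0.8 for CBL-70Z (mean ± SD). Abcg1 rose in WT-CBL (1.40 ± 0.23, adjusted p = 6.33e-05) and CBL-Y371S (1.57 ± 0.23, adjusted p = 5.72e-06). Its CBL-70Z libraries were all above EV too, but it was not called there (0.54 ± 0.23, adjusted p = 0.0946). Apoe, which carries exported lipid, rose in the same lines as Abcg1 (0.36 ± 0.09, adjusted p = 0.00322 in WT-CBL, 0.82 ± 0.09, adjusted p = 1.27e-07 in CBL-Y371S). Gpam, which starts glycerolipid synthesis, fell in all 3 lines, by 0.51 in WT-CBL cells, 0.18 in CBL-70Z and 0.80 in CBL-Y371S.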
